A study of Saccharomyces cerevisiae with 10 samples.

Results

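The late part of a transcription shut-off in budding yeast is described here, the 5 libraries taken 15, 20, 30, 45 and 60 min after the temperature shift, out of 10 libraries in the series. Cells of the rpb1-1/caf1Δ strain were grown at 24 °C and moved to 37 °C, at which the temperature-sensitive largest subunit of RNA polymerase II made from rpb1-1 stops mRNA synthesis. By their labels all libraries carry both alleles, so the comparison is between times within 1 strain. The strain with intact CAF1 is not analysed here. By the listed genotype HIS3 takes the place of the CAF1 gene, and the strain also carries his3, ura3 and leu2 alleles in a MATa background. The strain name given with the growth conditions differs from the one given with the samples. The paper lists the former strain as rpb1-1 with no caf1 deletion, so this conflict bears on the genotype. There is 1 library per time point, so no value at a single time has a replicate error, and the second culture that the design mentions is not used here.

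Each value is an FPKM, the number of sequenced fragments scaled to transcript length and to the fragments mapped in its library, divided by the summed FPKM of the ERCC spike-in RNAs relative to 15 min. This quotient is called the level below. Of 6717 yeast genes in the table, 4342 reached 10 FPKM in the 15 min library and were tested. The remaining 2375 did not pass and are not described. TPO3 (10.02 FPKM) lay just inside the limit and SHQ1 (9.99 FPKM) just outside it. Because the limit was set at the first of the 5 times, an mRNA that was low at 15 min and higher afterwards could not enter.

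Caf1, encoded by POP2, is one of the deadenylases of the Ccr4-Not complex, and Ccr4 is the other. Deadenylation shortens the poly(A) tail, after which mRNAs are decapped and degraded from the 5′ end or degraded from the 3′ end by the exosome. A late window of a shut-off holds the mRNAs that outlast the first minutes, along with transcripts that the heat shock itself had induced.

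The codon classes used below come from a pair of synthetic reporter genes of the study that encode the same peptide with different codons. They are shown because the 9 codons of each reporter define what is here called optimal (OPT) and non-optimal (NON-OPT) for each of 9 amino acids. For its bins of transcripts the paper used other, earlier published definitions of codon optimality. The shares below are therefore not on the scale of the paper. Capitals mark the open reading frame, from the start codon through the stop codon, and lower case marks the cloning ends.
OPT: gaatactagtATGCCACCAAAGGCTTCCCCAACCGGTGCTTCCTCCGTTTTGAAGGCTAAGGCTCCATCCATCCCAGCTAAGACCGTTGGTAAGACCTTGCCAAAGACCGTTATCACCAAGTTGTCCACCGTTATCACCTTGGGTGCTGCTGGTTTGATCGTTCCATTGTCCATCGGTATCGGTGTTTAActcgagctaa
NON-OPT: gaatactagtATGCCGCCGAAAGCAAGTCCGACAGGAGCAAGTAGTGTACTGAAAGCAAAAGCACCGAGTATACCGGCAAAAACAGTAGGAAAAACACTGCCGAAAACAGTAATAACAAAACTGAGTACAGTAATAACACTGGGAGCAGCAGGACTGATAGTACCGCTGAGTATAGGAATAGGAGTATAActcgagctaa

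The libraries were checked before the mRNAs were compared. Low FPKM come in steps of 1 fragment, and the size of the step put the depth at 2288737 fragments in the 15 min library and at 3589454 to 4982840 in the 4 later ones. The spike-in factors, in order of time, were 1, 0.960, 1.10, 0.995 and 1.15. A tested mRNA with 1 coding exon had a median of 83.9 estimated fragments at 15 min and 145 at 60 min. POP2 had 3.997 estimated fragments over all 5 libraries. HIS3, by the listed genotype the marker of the deletion, was at 0 throughout. The values thus show a low POP2 but not the marker, and why HIS3 was at 0 was not tested. CCR4 was present at 25.1, 36.5, 26.2, 29.7 and 23.5, in order of time.

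The libraries labelled 30 min and 45 min did not follow the order of their labels. At 45 min the level lay between those at 20 and 30 min for 60.2% of the tested mRNAs, and at 30 min it lay between those at 20 and 45 min for 19.1%. Likewise the 30 min level lay between those at 45 and 60 min for 62.2%, and the 45 min level between those at 30 and 60 min for 16.2%. Among 1489 mRNAs with a mean level of at least 50, the 45 min level lay between 20 and 30 min for 69.2%. These shares use spike-in scaled levels, with factors of 1.10 at 30 min and 0.995 at 45 min. They were not computed on another scale. The closest pair of libraries was 30 and 60 min, with an interquartile range of the log2 difference of 0.29, against 0.36 for 30 and 45 min and 0.38 for 20 and 45 min. Labels were kept as given. Calls come from fits without the 30 min library or without both, while medians and single changes use all 5 libraries unless stated otherwise.

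**Figure D1:**
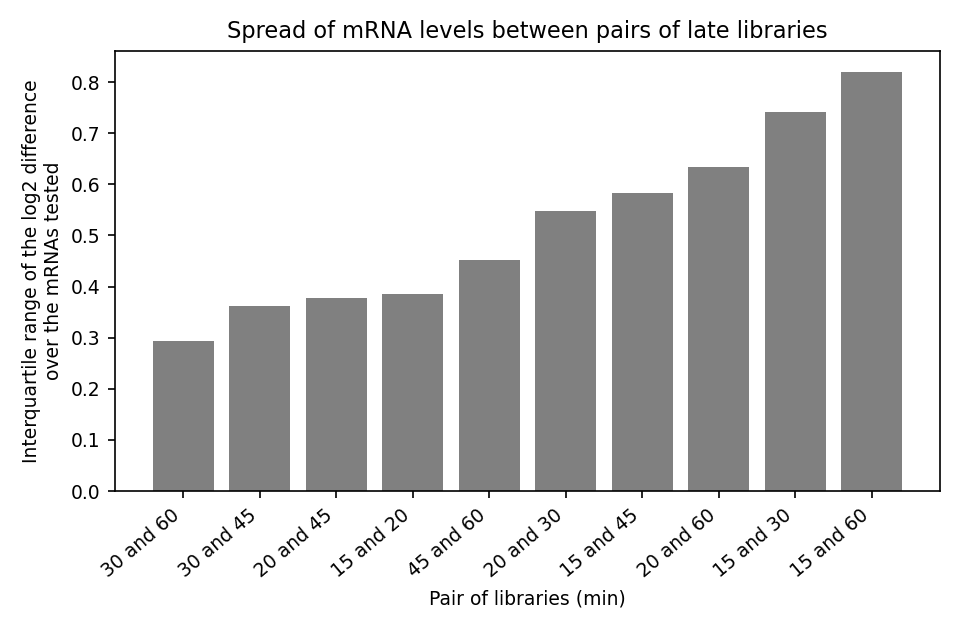
Interquartile range of the log2 difference in level over the 4342 tested mRNAs, for each of the 10 pairs of late libraries (bars, ordered by height, with the times in min below). The pair of 30 and 60 min has the smallest spread, 0.29, and the pair of 15 and 60 min the largest, 0.82.

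mRNA levels were lower at the end of the window than at its start for most genes. The median tested mRNA stood at 101%, 82.5%, 94.1% and 75.03% of its 15 min level in the libraries of 20, 30, 45 and 60 min. The quartiles at 60 min were 53.5% and 97.5% of the 15 min level. A straight line through the 5 log2 levels, taken as its change from 15 to 60 min, had a median of −0.34, or −0.19 without the 60 min library. With all 5 libraries it was negative for 3349 mRNAs and positive for 993. These counts rest on the spike-in scale, since 2761 lines were negative and 1581 positive on FPKM as deposited, and 2031 negative and 2311 positive on a scale that gives each library the same total of yeast FPKM. The sign of the line was the same with any 1 library left out for 2955 mRNAs, or 68.1%.

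With all 5 libraries no single slope passed the test. limma, fitted across the 4342 mRNAs with Benjamini-Hochberg adjustment, called 0 mRNAs at an adjusted p under 0.05 (0%), and the smallest adjusted p was 0.109. At an unadjusted p under 0.05, 951 mRNAs had a negative line (21.9%) and 52 a positive one (1.2%). Without the 30 min library the same test called 831 mRNAs that fell (19.1%) and 32 that rose (0.737%). Without both the 30 and the 45 min libraries, it called 1230 that fell (28.3%), which included all 831, and 47 that rose (1.08%), which included 30 of the 32. That fit rests on the 15, 20 and 60 min libraries alone, with 1 residual degree of freedom per mRNA. The fit without the 30 min library holds all of these, so the overlap is no separate support. Leaving out 1 other library ended the calls, with 0 mRNAs called without the 15, the 20 or the 45 min library and 1 without the 60 min library. Below, "fell" and "rose" refer to the fit without the 30 min library, which was chosen for this after the values were seen. Changes without that note come from the line through all 5. These p-values measure the scatter of single libraries of 1 time course about a line, which may be technical, and they say nothing about a second culture. Of the 831 that fell, 37 had a mean level under 10 over the 5 libraries, so they entered the test through their early libraries, and of the 32 that rose 0 did.

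By size alone, the line was lower by 1 log2 or more for 630 mRNAs (14.5%) and by 0.5 to 1 log2 for 1014 (23.4%). It stayed within 0.5 log2 for 2577 (59.4%), and it was higher by 0.5 log2 or more for 121 (2.79%). The last count depends most on the scaling, with 268 on FPKM as deposited and 630 at the same total FPKM. A pair of joined lines that meet at 30 min gives the shape of the time course. By this measure 992 mRNAs (22.8%) went down by 0.5 log2 or more before 30 min and moved by less than 0.5 after it, 164 (3.78%) went down by 0.5 or more in each part, 240 (5.53%) went down only after 30 min, and 100 (2.30%) went down and then up. All of these shapes rest on the 30 min library, which places the bend.

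Ribosomal protein mRNAs were the group with the lowest late levels relative to 15 min. These encode the structural proteins of the cytosolic ribosome, and 133 of the 137 were tested. Their median stood at 87.4%, 31.9%, 56.9% and 25.6% of the 15 min level in the libraries of 20, 30, 45 and 60 min, against 101%, 82.5%, 94.1% and 75.03% for all mRNAs tested. All 133 were lower at 60 min than at 15 min, and the median line was −1.67, against −0.34 for all mRNAs. Without the 30 min library 128 of the 133 fell and none rose, next to a background of 19.1% that fell. That background includes the ribosomal protein mRNAs, and of the 4209 other mRNAs 16.7% fell. Without both the 30 and 45 min libraries 131 of the 133 fell. The 5 that did not pass without the 30 min library were RPP1B, RPS27A, RPS30A, RPL15B and RPL36B.

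The medians of both subunits lay close together. Large subunit mRNAs (73 tested) had a median line of −1.65, small subunit mRNAs (55 tested) −1.71, and the 5 mRNAs of the ribosomal stalk, the flexible arm that recruits elongation factors, −1.30. Because this group is abundant, it took 17.8%, 15.5%, 8.29%, 11.7% and 7.19% of the summed yeast FPKM, in order of time. FPKM are per length, so this is a share of transcripts rather than of reads. Some of these coding sequences are under 300 bases, where FPKM are uncertain, so the share is approximate.

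Single ribosomal protein mRNAs differed in how far they went down. RPS30B, which encodes a small subunit protein, had the highest FPKM at 15 min, with levels of 6069, 5641, 2632, 3800 and 1849 in order of time. The steps of low FPKM put the effective length at the coding length less 170 bases. RPS30A and RPS30B do not both reach 300 coding bases. An FPKM over so short a length is uncertain, and so is the rank by abundance. RPS26B (chromosome V, 423952 to 424311 in R64), another small subunit gene, had the steepest line of the group, with levels of 187, 159, 34.4, 79.1 and 23.7 and a change of −2.52 ± 0.74 (SE of the line). RPS30A, also high by FPKM, went down less, with 4473, 4248, 2775, 3462 and 2814 and a change of −0.58 ± 0.31. In each of these the 45 min value was above the 30 min value, as for 129 of the 133.

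RPL36B was the only one with a positive line, 0.11 ± 2.53, and it was listed at 0 at 20 and 45 min and at 42.9, 17.0 and 26.0 in the others, so this slope has no precision. In all, 21 tested genes were listed at 0 in at least 1 late library. Most yeast ribosomal proteins are encoded by a pair of near-identical genes between which reads can be split, so values of single paralogs are uncertain. Of 56 pairs with both members tested, 34 had lines within 0.5 log2 of each other, and the median absolute difference was 0.30. RPS27 differed most, with −0.31 for RPS27A and −1.78 for RPS27B, and in RPS26 the lines were −1.20 for RPS26A and −2.52 for RPS26B.

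**Figure D2:**
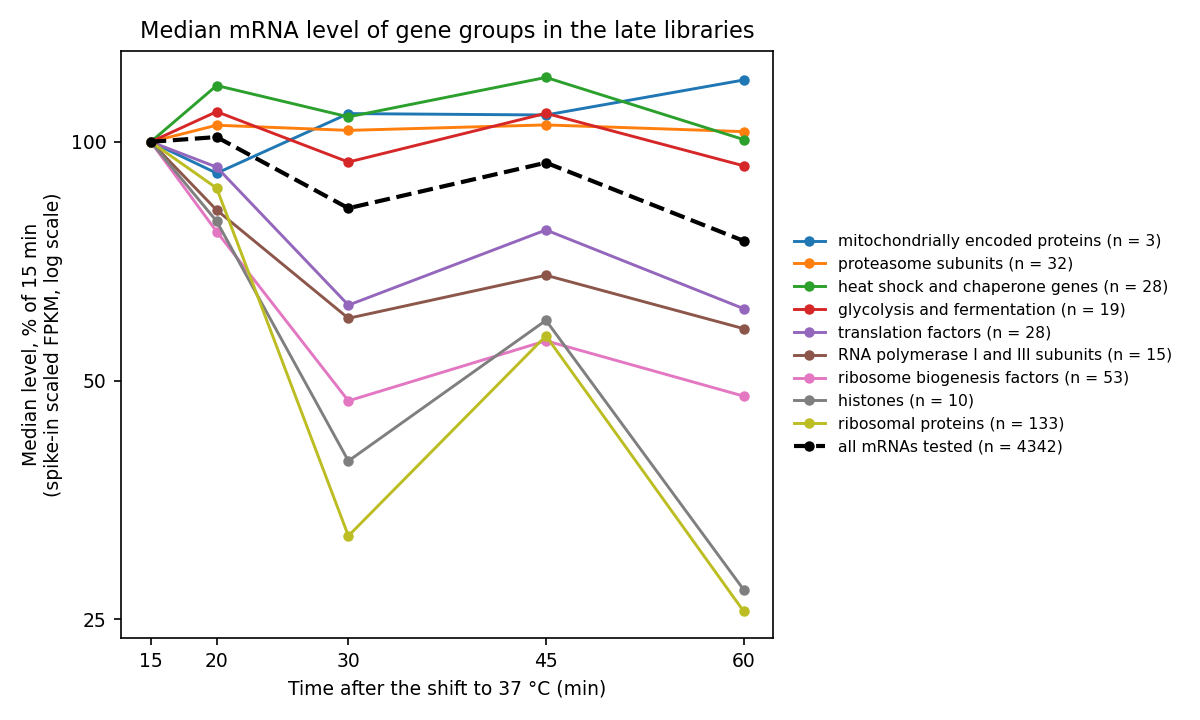
Median level of 9 gene groups (coloured lines) and of all mRNAs tested (dashed black) in percent of the 15 min level, on a log scale, against time in min. Ribosomal protein and histone mRNAs reach 25.6% and 27.3% at 60 min, proteasome and heat shock mRNAs stay near 100%, and most lines are higher at 45 min than at 30 min.

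Histone mRNAs, which encode the proteins that package DNA and are made mainly in S phase, fell in every member. All 10 passed without the 30 min library, next to a background of 19.1%, and all 10 fell without both libraries. Their median stood at 79.4%, 39.6%, 59.6% and 27.3% of the 15 min level at 20, 30, 45 and 60 min, and the median line was −1.44. HHT1, which encodes histone H3, was the most abundant and had levels of 1211, 881, 456, 592 and 448. HHF1, which encodes histone H4, had 840, 732, 316, 508 and 226. HTB2, which encodes histone H2B (chromosome II, 236492 to 236887 in R64), was the steepest with 269, 203, 50.1, 95.9 and 37.3 and a change of −2.44 ± 0.68. HHT2, the second gene for histone H3, was the least steep with 730, 688, 381, 450 and 408 and a change of −0.81 ± 0.34. At 60 min each of the 10 mRNAs was below its level at 15 min. Several histone genes, like the enolase genes below, are near-identical copies, so the split between them is uncertain.

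The machinery that builds ribosomes went down less far than the ribosomal proteins. Of 53 tested ribosome biogenesis mRNAs, which act in processing rRNA and assembling the subunits, 28 fell and none rose without the 30 min library, against a background of 19.1%, and 33 fell without both, against 28.3%. The median line was −0.95, and −0.61 without the 15 min library. Their median stood at 77.0%, 47.2%, 56.1% and 47.8% of the 15 min level at 20, 30, 45 and 60 min. By the joined lines, this group changed by a median of −0.90 before 30 min and by −0.05 after it, while ribosomal protein mRNAs changed by −1.35 and −0.39. Where the joined lines place the bend rests on the 30 min library.

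Within this group RRP5, a large factor needed for processing of both subunit rRNAs, was the most abundant mRNA and changed little, with levels of 111, 114, 96.5, 104 and 84.4. NOP10, a small protein of the H/ACA particles that guide pseudouridylation of rRNA, had 83.6, 74.0, 109, 71.4 and 9.89, a decline that rests on the 60 min library and on a short mRNA. NOP16, a nucleolar protein of large subunit assembly, had 19.9, 15.5, 18.03, 14.2 and 23.4. NOP1, the rRNA methyltransferase fibrillarin, had 53.6, 33.2, 14.2, 19.1 and 16.5 and changed by −1.37 ± 0.52.

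Subunits of RNA polymerases I and III, which transcribe rRNA and tRNA and were not the target of rpb1-1, had a median line of −0.70 over 15 mRNAs, and −0.35 without the 15 min library. Of the 15 mRNAs 2 fell without the 30 min library, a share of 13.3% below the background of 19.1%, and 4 fell without both. The 2 were RPA49, an RNA polymerase I subunit with levels of 30.8, 22.1, 5.80, 8.79 and 7.95, and RPA135, the second largest subunit of that enzyme, with 82.1, 68.2, 45.7, 56.1 and 37.7. RPA190, its largest subunit, had 85.5, 87.8, 61.5, 73.3 and 58.3. RPC19, a subunit shared by both enzymes, had 15.5, 11.4, 14.4, 17.5 and 17.9 and the highest line of the group, 0.43 ± 0.27. Without both the 30 and 45 min libraries RPA190 and RPC37, an RNA polymerase III subunit, were called as well.

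mRNAs for translation went down to a middle degree. Of 28 translation factor mRNAs 12 fell and none rose (42.9%, against 19.1% of all mRNAs), and 15 fell without both libraries. Their median stood at 61.6% at 60 min with a median line of −0.63. YEF3, the fungal elongation factor 3, was the most abundant and had 1555, 1581, 1291, 1527 and 1284. SUI1, which encodes the initiation factor eIF1, had 473, 416, 288, 363 and 259. TEF4, the gamma subunit of elongation factor 1B, was the steepest with 250, 193, 60.2, 106 and 44.8 and a change of −2.10 ± 0.58. TIF5, the initiation factor eIF5, had 64.2, 59.8, 74.7, 61.9 and 79.2 and the highest line, 0.26 ± 0.22. This group therefore held mRNAs that went down as steeply as ribosomal protein mRNAs next to ones that stayed level.

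The 18 aminoacyl-tRNA synthetase mRNAs, whose products charge tRNAs, all had negative lines, with a median of −0.56. Without the 30 min library 5 fell, which were SES1 (−1.15), WRS1 (−1.10), FRS2 (−0.82), DED81 (−0.81) and FRS1 (−0.66), next to the background of 19.1%, and without both libraries 12 fell, next to 28.3%. SES1, the serine enzyme, was the steepest with 202, 198, 91.7, 134 and 82.0, and ILS1, the isoleucine enzyme, the least steep with 426, 449, 380, 430 and 384. GRS1, the glycine enzyme, had 315, 300, 208, 265 and 180.

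Ergosterol and amino acid synthesis mRNAs had medians below that of all mRNAs. Of 22 ergosterol synthesis mRNAs, whose products make the main membrane sterol of yeast, 10 fell and none rose, against the background of 19.1%, with a median line of −0.69. Without both libraries 13 fell. ERG1, squalene epoxidase, was the steepest with 105, 88.9, 44.9, 63.5 and 36.3, and ERG3, a C-5 sterol desaturase, the least steep with 144, 95.0, 100, 89.5 and 138. ERG20, farnesyl pyrophosphate synthase and the most abundant of the group, had 217, 208, 158, 204 and 135.

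Among 54 amino acid biosynthesis mRNAs 17 fell and none rose, next to the background of 19.1%, and 22 fell without both libraries, next to 28.3%. The median line was −0.43, and −0.25 without the 60 min library. ILV5, an enzyme of branched-chain amino acid synthesis, had the highest level at 15 min and the steepest line, with 473, 362, 131, 218 and 120 and a change of −1.66 ± 0.54. ASN2, an asparagine synthetase, had 202, 203, 157, 195 and 163. GLN1, glutamine synthetase, had 99.1, 139, 197, 209 and 172, the highest line of the group at 0.71 ± 0.36, which did not pass without the 30 min library in limma (adjusted p = 0.0912). The group thus spread over more than 2 log2 units.

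**Figure D3:**
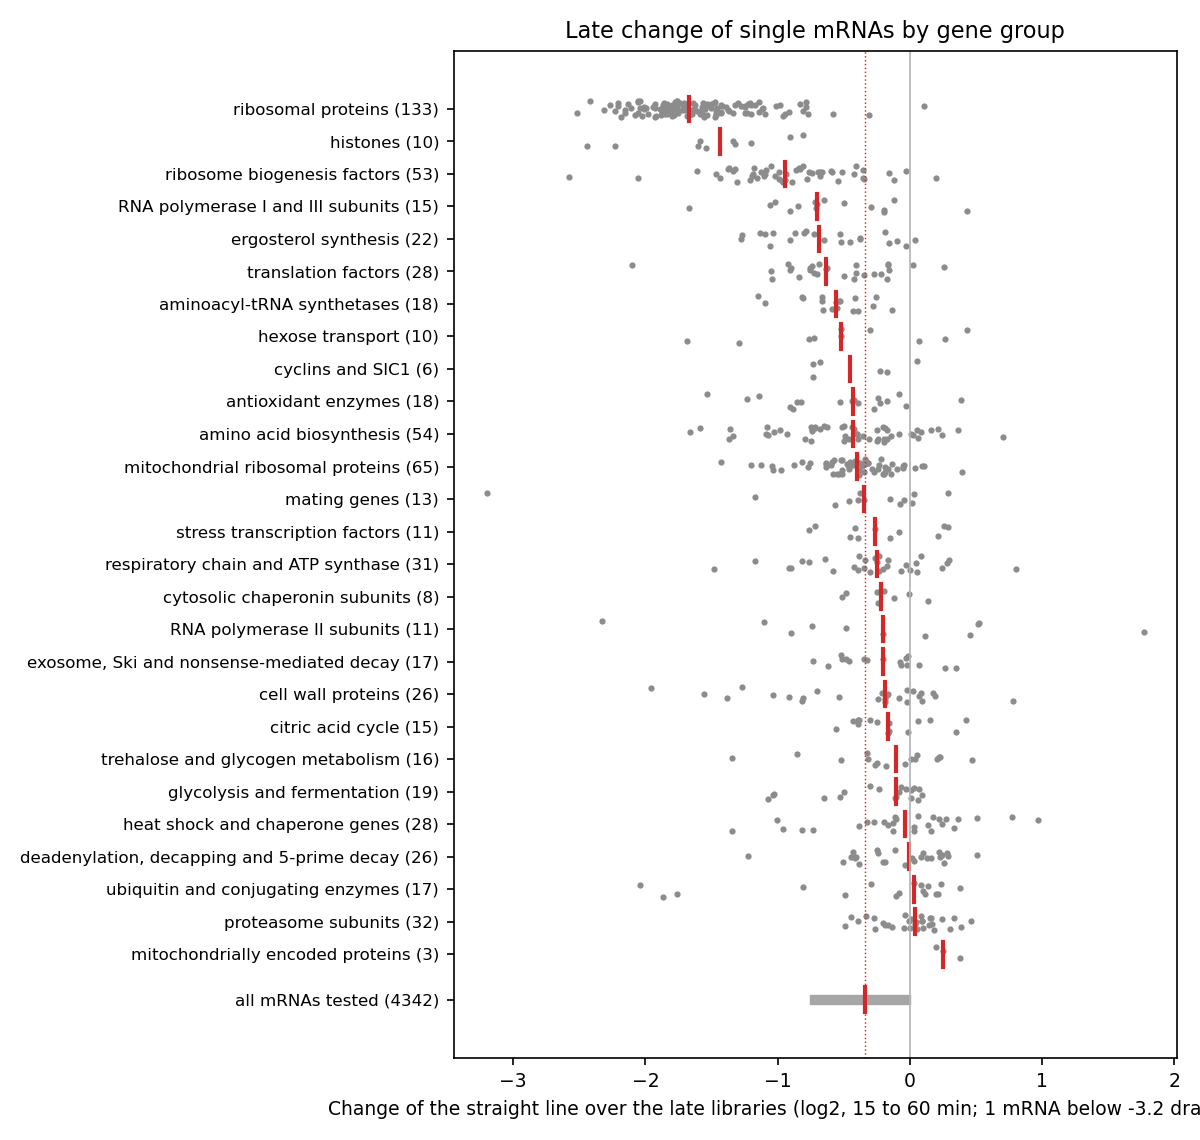
Change of the straight line from 15 to 60 min, in log2, for each tested mRNA (grey points) of 27 gene groups, with the group median (red bar) and the number tested in parentheses. The bottom row gives the median and quartiles of all 4342 mRNAs, and the dotted line marks their median of −0.34. Ribosomal protein mRNAs have a median of −1.67 and proteasome mRNAs 0.04. MFA2 is drawn at the left edge.

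Antioxidant enzyme mRNAs had a median line of −0.43, and −0.18 without the 60 min library. Of 18 tested 6 fell, next to the background of 19.1%, and 9 fell without both libraries, next to 28.3%. AHP1, a thiol peroxidase, was the most abundant with 3380, 4058, 2787, 3575 and 2512. TRX1, a cytosolic thioredoxin, was the steepest with 394, 359, 187, 270 and 112 and a change of −1.53 ± 0.41, and TSA1, the main cytosolic peroxiredoxin, had 741, 778, 489, 624 and 393. SOD2, the mitochondrial superoxide dismutase, had 128, 178, 186, 191 and 187 and a line of 0.38 ± 0.26. TRX1 fell, while SOD2 was not called.

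Of 10 hexose transport mRNAs 3 fell, and the same number without both libraries, next to the background of 19.1%, and all 3 were hexose transporters. The median line of the group was −0.52, and −0.07 without the 60 min library. HXT1, a low-affinity transporter, had 12.45, 11.3, 3.60, 4.96 and 2.90. It passed the limit of 10 FPKM through the start of the window, since its mean level over the 5 libraries was 7.04. HXT2, a high-affinity one, had 297, 273, 133, 219 and 99.3, and HXT3, another low-affinity one, had 725, 628, 358, 448 and 409. MTH1, a repressor in glucose sensing, had 34.3, 35.1, 41.7, 40.6 and 47.7. The transporters named here were lower at 60 min than at 15 min and the repressor mRNA was higher.

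mRNAs of central carbon metabolism kept their levels to a large degree. The 19 mRNAs of glycolysis and fermentation stood at a median of 109%, 94.3%, 109% and 93.3% of the 15 min level at 20, 30, 45 and 60 min, with a median line of −0.11. TDH3, a glyceraldehyde-3-phosphate dehydrogenase, was the most abundant mRNA of all that stayed within 0.25 log2, with 14832, 16183, 13398, 16466 and 13427. ENO2 and ENO1, the enolases, had 9655, 10934, 9834, 11332 and 10163, and 3912, 4355, 3861, 4472 and 4014. PDC1, pyruvate decarboxylase, had 8965, 10137, 8567, 10338 and 8729, and PGK1, phosphoglycerate kinase, had 5177, 6167, 5076, 6056 and 4829. These abundant mRNAs moved with the library on the spike-in scale, higher at 20 and 45 min and lower at 30 and 60 min. The spike-in factors were 0.960 and 0.995 in the former and 1.10 and 1.15 in the latter. Each of their lines changed by less than its standard error.

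In the same pathway 3 of 19 mRNAs fell without the 30 min library (15.8%, below the background of 19.1%), and these were named after their values were seen, except for HXK1. HXK1, a hexokinase, had the steepest line with 1560, 1632, 845, 1289 and 658 and a change of −1.08 ± 0.40. HXK2, the main hexokinase in glucose, changed by −1.04 and TPI1, triose phosphate isomerase, by −1.03. PDC5, a minor pyruvate decarboxylase, had the highest line with 36.1, 41.9, 36.3, 46.7 and 37.9. Without both libraries 6 of the 19 fell, near the background of 28.3%.

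Citric acid cycle mRNAs stayed near their 15 min levels, with 0 of 15 called without the 30 min library, only SDH3 called without both, and a median line of −0.17. ACO1, aconitase, had 1419, 1637, 1581, 1641 and 1539. CIT1, mitochondrial citrate synthase, had the highest line with 893, 969.9, 1169, 1055 and 1277, and SDH3, a membrane subunit of succinate dehydrogenase, the lowest with 91.0, 94.6, 65.0, 88.9 and 56.3. Each of these lines lay within 0.6 log2 of 0.

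Of 31 nuclear mRNAs for the respiratory chain and ATP synthase 4 fell (12.9%, below the background of 19.1%), with a median line of −0.25. Without both libraries 8 fell and 1, ATP20, rose. CYC1, iso-1 cytochrome c, had 145, 74.96, 47.5, 44.4 and 41.7 and the steepest line, −1.48 ± 0.44. ATP20, a subunit of ATP synthase, had 41.7, 64.02, 68.7, 66.1 and 90.3 and the highest, 0.80 ± 0.27. COX7, a small subunit of cytochrome c oxidase, had 410, 439, 336, 346 and 444. The other 3 that fell were ATP15 (−1.17), COX9 (−0.92) and COX8 (−0.76), small subunits of the same enzymes that were named after their values were seen. Calls within the lists carry no limit on coding length. Of all 863 calls without the 30 min library, 754 had at least 300 coding bases. CYC1 and ATP20 were close in the 30 and 45 min libraries, unlike most mRNAs described above.

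mRNAs for the proteasome, which degrades ubiquitinated proteins, stayed near their 15 min levels. All 32 had lines within 0.5 log2, none was called with all 5 libraries, without the 30 min library or without both, and the median stood at 105%, 103%, 105% and 103% of the 15 min level at 20, 30, 45 and 60 min. PRE7, a core particle subunit, had 263, 279, 287, 297 and 296, and RPN2, a base subunit of the regulatory particle, had 243, 280, 332, 320 and 335. RPN13, a ubiquitin receptor, was the lowest of the group with 165, 137, 112, 111 and 112, and PRE9, a core subunit, the highest with 104, 99.0, 129, 135 and 137. In the group of ubiquitin and conjugating enzymes the median line was 0.03, and the 4 of 17 that fell, next to the background of 19.1%, were RPL40A, RPL40B and RPS31, which encode ubiquitin fused to ribosomal proteins and are also counted with the ribosomal proteins, and UBC7, a conjugating enzyme of the endoplasmic reticulum. RPS31 had 1528, 1276, 353, 644 and 351, and NPL4, a partner of Cdc48 in the same list, had 117, 130, 147, 143 and 161.

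Heat shock and chaperone mRNAs, which a shift to 37 °C induces by way of Hsf1 and Msn2, had a median line of −0.04, against −0.34 for all mRNAs, with 14 positive and 14 negative. HSP26, a small heat shock protein and the most abundant of the group, had 9211, 13000, 17211, 16275 and 17967, a line of 0.77 ± 0.35 that did not pass without the 30 min library (limma adjusted p = 0.0919) but was called without both the 30 and 45 min libraries. SSA3, a stress-induced Hsp70, was the 1 member that rose, with 398, 609, 954, 821 and 926. HSP12, a membrane-associated small stress protein, had 4263, 5117, 3742, 5023 and 3311. The summed level of the 28 mRNAs was 122%, 121%, 128% and 117% of its 15 min value at 20, 30, 45 and 60 min.

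Of the same 28 mRNAs 4 fell (14.3%, below the background of 19.1%), and without both libraries 5 fell and 2 rose. BTN2, which takes misfolded proteins into inclusions, was the steepest with 2097, 2016, 923, 1321 and 738 and a change of −1.35 ± 0.41. HSP42, a small heat shock protein with a role in the same process, changed by −1.0, FES1, a nucleotide exchange factor of Hsp70, by −0.96, and SIS1, an Hsp40, by −0.73, and these were named after their values were seen. The group thus held members that fell and, in SSA3, 1 that rose.

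Chaperonin, stress and storage groups stayed near the median of all mRNAs or above it. The 8 mRNAs of the cytosolic chaperonin, which folds actin and tubulin, had a median line of −0.22 and none was called without the 30 min library, while 2 fell without both. Of 16 mRNAs of trehalose and glycogen metabolism, whose products make and break down storage sugars, 2 fell, UGP1 and GSY1, a glycogen synthase, below the background of 19.1%, and 3 fell without both libraries. The median line was −0.11. UGP1, which makes UDP-glucose, was the steepest with 430, 441, 191, 354 and 140, and NTH1, the neutral trehalase, was the highest with 259, 335, 375, 349 and 408. TPS1, trehalose-6-phosphate synthase, had 850, 984, 789, 961 and 664. Among 11 stress transcription factor mRNAs none was called without the 30 min library and 1 fell without both, and RPN4, the activator of proteasome genes, had 387, 460, 399, 450 and 375.

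mRNAs for the decay machinery itself were level. The 26 tested mRNAs for deadenylation, decapping and 5′ decay had a median line of −0.01, with 13 positive and 13 negative. PAB1, the poly(A)-binding protein, had 216, 252, 172, 220 and 161 and a change of −0.41 ± 0.27. LSM6, a subunit of the Lsm ring that acts with the decapping activator Pat1, was the 1 member that fell, with 312, 327, 114, 159 and 135, and NOT3, a Ccr4-Not subunit, had the highest line, 0.51 ± 0.21, with 17.9, 18.8, 24.5, 23.3 and 26.6. The 17 mRNAs of the exosome, Ski complex and nonsense-mediated decay had a lower median line, −0.20, with 13 within 0.5 log2. None of the 17 was called without the 30 min library, and RRP6, a nuclear exosome exonuclease, was the lowest with 21.3, 15.1, 11.7, 12.4 and 10.7. SKI2, a helicase of the Ski complex, had 51.6, 58.5, 71.7, 67.4 and 69.3.

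Subunits of RNA polymerase II were split. Of 11 mRNAs tested 4 fell, next to the background of 19.1%, namely RPB11 and, named after their values were seen, RPB8 (−1.10), RPB10 (−0.90) and RPO26 (−0.74), small subunits of the core. In all, 6 had negative lines and 5 positive ones. RPB11, a core subunit, had 72.4, 56.0, 15.5, 29.4 and 10.2 and a change of −2.33 ± 0.62, while RPB2, the second largest subunit, had 136, 156, 189, 176 and 210 and a change of 0.52 ± 0.22. RPB2 was called as risen without both libraries only. RPC10, a small subunit common to the nuclear polymerases, had the highest line, 1.77 ± 2.08, but its short mRNA was listed at 0 at 20 min. The median line of the group was −0.20, and between −0.44 and −0.003 with 1 library left out.

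Cell wall mRNAs also moved apart, with 8 of 26 that fell, next to the background of 19.1%, and 1 that rose, while 10 fell and 1 rose without both libraries. CWP1, a mannoprotein, had 210, 187, 71.1, 140 and 39.7 and the steepest line, −1.96 ± 0.59, and CCW12, another mannoprotein, had 4044, 4684, 1915, 2932 and 1597. PIR3, a protein linked to the glucan layer, rose with 246, 311, 416, 349 and 491, and SED1, the main wall protein of stationary cells, had 4382, 5903, 5447, 5915 and 5470. Both CWP1 and CCW12 were lower at 60 min than in any other library.

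Among the other lists, of 65 mitochondrial ribosomal protein mRNAs, which are nuclear and serve the ribosome inside mitochondria, 11 fell and none rose (16.9%). This share is below the background of 19.1% but close to the 16.7% of mRNAs other than cytosolic ribosomal protein mRNAs. The median line was −0.40. Without both libraries 14 fell, next to 28.3%. MRPL37 was the steepest with 210, 168, 111, 121 and 66.4, and MRPS12 had 239, 210, 150, 213 and 161. Of the 6 tested in the list of cyclins and SIC1 none was called without the 30 min library and 1 fell without both, and SIC1, the inhibitor of S phase cyclins, had 49.7, 61.4, 49.99, 67.4 and 51.3. Of 13 mating mRNAs 1 fell. It was BAR1, the protease that degrades alpha factor, with a change of −1.17 and named after its values were seen. The median line of the mating list was −0.34, and 0.07 without the 60 min library. MFA2, which encodes the a-factor pheromone, was listed at 607 at 15 min and at 0 in the other libraries, with a coding sequence of 117 bases. Its line of −5.77 rests on the 15 min library alone, though it counts in the median of the list.

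The steepest single mRNAs were taken from those that passed without the 30 min library, had the same sign with any library left out and had at least 300 coding bases. The rule set for all 5 libraries named none, so this use of the fit without the 30 min library was chosen after the values were seen. It left 723 mRNAs that fell and 31 that rose. The 723 had a median coding length of 771 bases and the 31 one of 1665 bases, against 1206 bases for all mRNAs tested.

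FMP48, a protein kinase gene (chromosome VII, 593596 to 594705 in R64), was the steepest of those that fell. Its levels were 31.6, 15.7, 0.985, 5.79 and 1.24, and its change was −3.14 ± 1.22, or −3.49 ± 0.43 without the 30 min library (limma adjusted p = 0.00348). BNS1, a relative of the mitotic exit regulator SPO12, had 17.9, 9.56, 0.946, 1.66 and 1.60, from an estimated 10.0 fragments at 15 min and 2.01 at 60 min. It passed the limit of 10 FPKM only through the 15 min library, and its mean level was 6.33. CIN5 (chromosome XV, 383533 to 384420 in R64), a transcription factor of the Yap family, had 61.4, 51.7, 8.06, 23.0 and 7.06 and a change of −2.54 ± 0.86. These 3 mRNAs were at or below 11.5% of their 15 min level at 60 min.

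The rest of the 10 were ribosomal protein mRNAs and genes already named, together with DTD1. DTD1, which removes D-tyrosine from tRNA, had 27.8, 17.5, 5.71, 12.1 and 2.76. RPL16A had 353, 239, 57.0, 124 and 46.3, RPL11A had 251, 187, 59.2, 84.8 and 40.7, and RPS24B had 264, 129, 51.4, 82.5 and 35.4, all structural proteins of the ribosome. In all 10 the 45 min level was above the 30 min level, and the 60 min level was the lowest or next to the lowest.

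ECM13, a gene of unknown function (chromosome II, 136688 to 137461 in R64), had the largest change among the mRNAs that rose. Its levels were 59.3, 91.3, 177, 116 and 244, and its change was 1.58 ± 0.46, or 1.70 ± 0.28 without the 30 min library (limma adjusted p = 0.00686). GCV2 (chromosome XIII, 637500 to 640604 in R64), a subunit of glycine decarboxylase, had 28.6, 40.1, 93.0, 74.1 and 97.7. YKR075C and YPR078C, which encode uncharacterized proteins, had 10.6, 11.3, 26.2, 21.7 and 34.3, and 10.6, 8.86, 30.2, 24.6 and 28.3. All 4 were more than 2.5 times as high at 60 min as at 15 min.

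MIG2, a repressor in glucose repression, had 14.7, 25.5, 40.2, 45.9 and 44.4. SLF1, an RNA-binding protein with a La motif, had 13.4, 20.501, 27.0, 25.1 and 39.8, and GAS2, a glucan-modifying enzyme, had 24.5, 31.2, 56.7, 51.0 and 59.05. HMX1, a heme oxygenase, had 45.1, 72.5, 107, 110 and 104, and SNT309, a splicing factor, had 25.6, 44.7, 64.6, 54.2 and 63.9. On the joined lines each of these 5 changed more before 30 min than after it, from 0.76 to 1.36 log2 before and from −0.10 to 0.48 after.

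**Figure D4:**
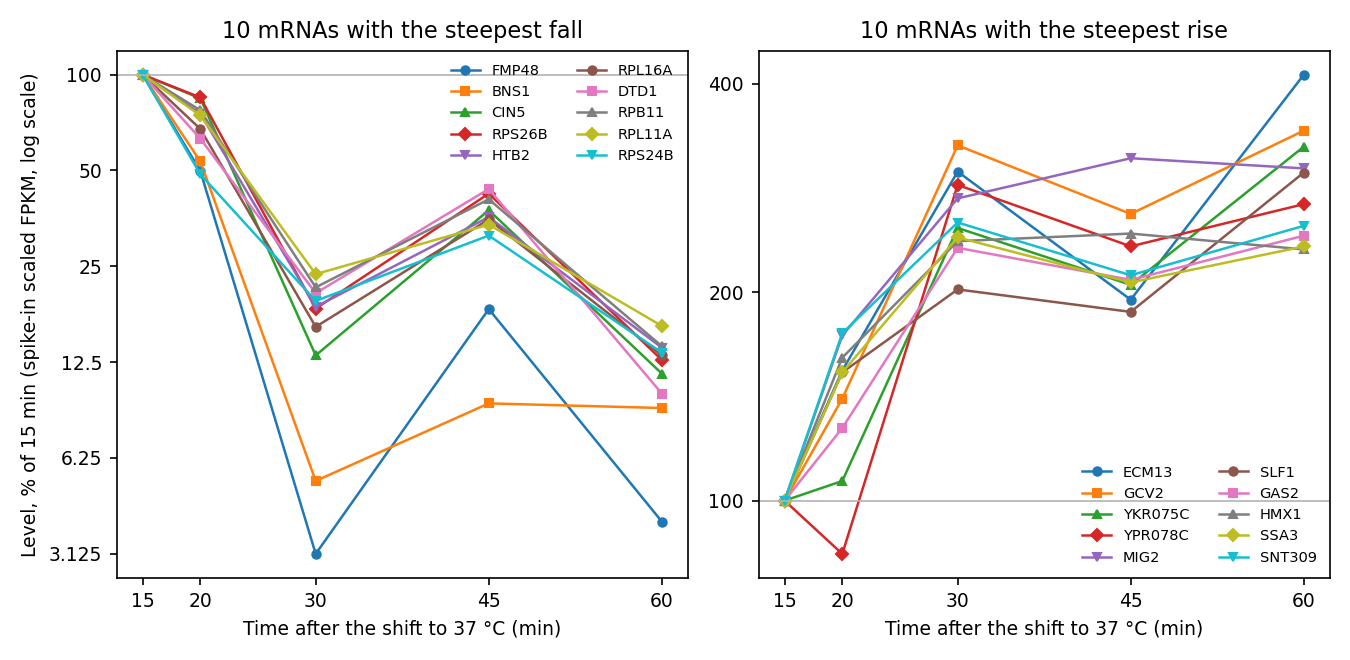
Level in percent of the 15 min level, on a log scale, against time in min, for the 10 mRNAs that fell most steeply (left) and the 10 that rose most steeply (right), 1 line per mRNA and 1 library per point. In the left panel all 10 are higher at 45 min than at 30 min, and in the right panel ECM13 stands at 412% at 60 min.

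A change of slope at 30 min was tested with the joined lines, and none passed. limma called 0 of 4342 mRNAs (0%) at an adjusted p under 0.05, with a smallest adjusted p of 0.745, and at an unadjusted p under 0.05 there were 220 with a positive change of slope and 36 with a negative one. By moderated t, and so short of the threshold, the largest positive changes of slope were in NIP7, COX16, NOP1, RPA49, YBL028C and RPL36A. NIP7, a factor of large subunit assembly, had 29.0, 16.2, 6.76, 9.67 and 11.4. COX16, an assembly factor of cytochrome c oxidase, had 46.7, 34.4, 17.3, 20.6 and 23.1. YBL028C, an uncharacterized protein, had 66.6, 29.1, 6.11, 17.5 and 11.7, and RPL36A, a large subunit protein, had 332, 220, 86.6, 142 and 126.

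In these mRNAs the lowest level was that of the 30 min library. The most negative changes of slope were in GCV2, SUE1 and MIG2. SUE1, which acts in the degradation of unstable cytochrome c, had 24.7, 31.8, 49.5, 47.5 and 37.4. Without the 30 min library the median change of slope was −0.034 log2 per min, against 0.0082 with all 5, so the sign of the typical bend depends on that library. It was also negative at the same total FPKM (−0.0071) and with the lines joined at 45 min (−0.012).

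mRNAs with the highest share of OPT codons had the lowest late levels relative to 15 min, and ribosomal protein mRNAs accounted for most of this. The share was computed over the 18 codons of the reporters for 4085 nuclear coding sequences. The 342 mRNAs with at least 80% OPT codons had a median line of −0.97 and stood at 43.7% of the 15 min level at 60 min. Those with under 40% (139) had −0.45 and 68.2%, and those with 40 to 49% (1087) had −0.23 and 81.4%. Ribosomal protein mRNAs were 131 of the 342, and without them the remaining 211 had a median of −0.50 and 66.8%. The difference between the highest and the lowest class was −0.52 with the ribosomal protein mRNAs and −0.05 without them. The lowest class held shorter mRNAs, with a median coding length of 612 bases against 1326 at 40 to 49%. From 40 to 49% upward the medians went down with each class, also without ribosomal protein mRNAs.

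Between these ends the medians without ribosomal protein mRNAs were −0.28 at 50 to 59%, −0.39 at 60 to 69% and −0.42 at 70 to 79%. The highest class held abundant level mRNAs such as TDH3 (99.4% OPT) and PGK1 (98.6% OPT) next to RPL11A (94.4% OPT), RPS26B (90.7% OPT) and NOP1 (92.4% OPT), which had steep lines. Across the 3952 mRNAs that are not ribosomal protein mRNAs, Spearman's rho between OPT share and the line was −0.13, a description across genes that share the same libraries.

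Coding length went with the line more closely than codon content did. Without ribosomal protein mRNAs the median line was −0.58 for coding sequences under 300 bases, −0.53 for 300 to 599, −0.46 for 600 to 899, −0.34 for 900 to 1499, −0.23 for 1500 to 2499 and −0.06 for 2500 and over. Without the 30 and 45 min libraries the shortest class had −0.68 and the longest −0.10. The median mRNA of the longest class stood at 97.1% of its 15 min level at 60 min, and that of the shortest at 61.9%. Among the long mRNAs that rose were UBR1, a ubiquitin ligase of the N-degron pathway, with 41.0, 49.8, 66.3, 57.7 and 72.7, and CFT1, a subunit of the cleavage and polyadenylation factor, with 17.1, 22.3, 29.0, 26.7 and 33.4, both named after their values were seen. Spearman's rho between coding length and the line was 0.31 across the same 3952 mRNAs. Genes entered through the 15 min library, which is the shallowest and also starts the line. Of the tested genes 279 had a mean level under 10, and the length classes were not recomputed without them. What part length has in the changes of single groups was not tested.

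**Figure D5:**
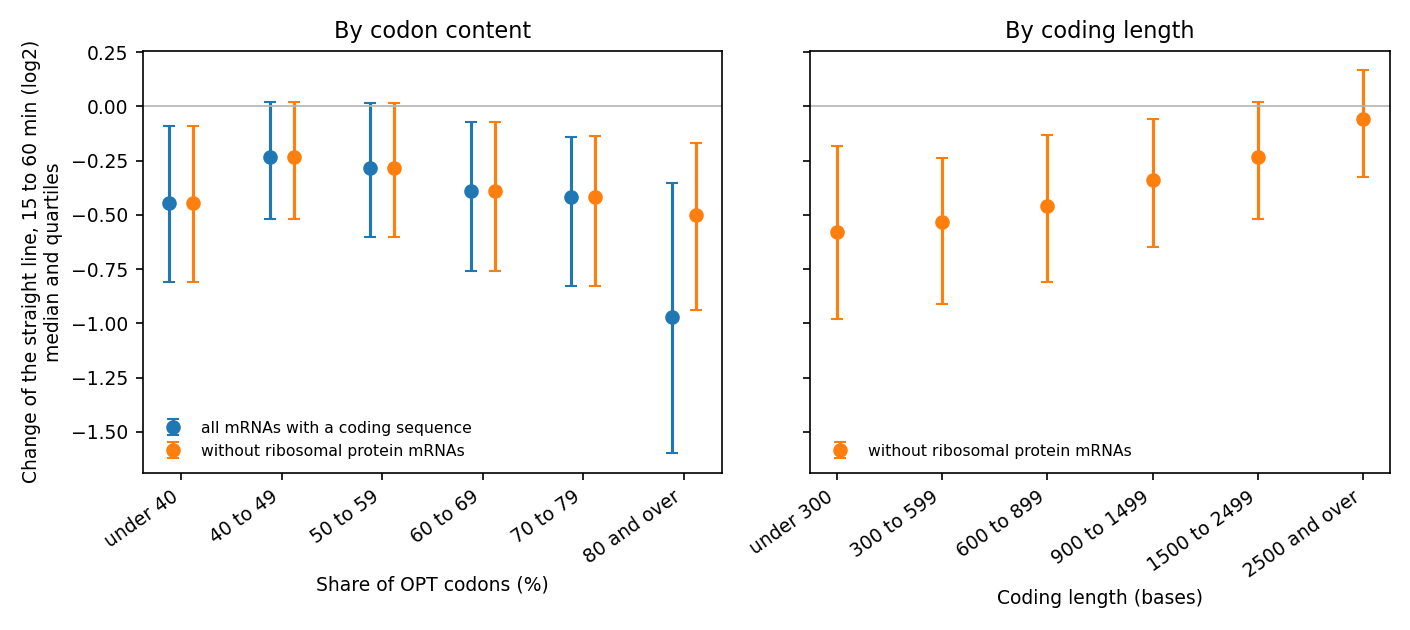
Median change of the straight line from 15 to 60 min, in log2, with quartiles as bars, by share of OPT codons (left; blue, all mRNAs with a coding sequence, orange, without ribosomal protein mRNAs) and by coding length (right). In the class of 80% and over the median is −0.97 with ribosomal protein mRNAs and −0.50 without them, and by length the median is −0.58 under 300 bases and −0.06 at 2500 bases and over.

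Medians near 0 depended on single libraries as well. Without the 60 min library the median line was 0.25 for heat shock mRNAs, 0.21 for trehalose and glycogen, 0.07 for glycolysis, 0.07 for the decay machinery, 0.02 for the cell wall and −0.14 for ubiquitin. Without the 15 min library the same medians were −0.22, −0.25, −0.21, −0.14, −0.34 and −0.04, so none of these groups has a settled direction. Of the other groups, citric acid cycle mRNAs had −0.06, stress transcription factors −0.12, cyclins −0.01, the exosome list −0.13 and the proteasome 0.11 without the 60 min library. In ribosomal protein, histone, translation factor, tRNA synthetase, ergosterol, mitochondrial ribosomal, respiratory and chaperonin mRNAs no median moved by more than 1.5 times with 1 library left out.

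The zero of every change depends on the scaling. On a scale that gives each library the same total of yeast FPKM the median line of all mRNAs was 0.04, against −0.34 with the spike-ins, a shift of all mRNAs alike. On that scale the median line was −1.28 for ribosomal protein mRNAs, −1.06 for histones and −0.57 for ribosome biogenesis, and it was 0.44 for proteasome, 0.36 for heat shock and 0.29 for glycolysis mRNAs. The order of these groups relative to all mRNAs was therefore the same, while levelness in the proteasome and decay groups holds for the spike-in scale only.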

How the data were processed

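RNA with ERCC spike-ins was sequenced as paired ends. The paper names library kits both for total RNA and for mRNA, without saying which served which library. The authors aligned reads with Bowtie 0.12.7 to sacCer2 and deposited FPKM from Cufflinks 1.3.0, which carry no spike-in scaling. From these deposited FPKM, the columns at 15, 20, 30, 45 and 60 min were divided by the summed spike-in FPKM relative to 15 min, and no earlier column was used. For the genes that reached 10 FPKM in the 15 min library, log2(level + 1) was regressed on time by limma (version 3.58.1, R version 4.3.3) with a mean-variance trend, and p-values were adjusted by Benjamini-Hochberg over these genes. Fold changes on this scale understate changes of low genes. Scripts were tested on simulated data. Depth was estimated from low FPKM values: 94.9% to 96.5% per library lay within 0.1 of a whole fragment. It covers counting error only.

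Of 6717 genes 6025 matched RefSeq R64 by systematic name. R64 differs from sacCer2. Its coordinates and coding sequences are used for names, codon content, coding length and the estimates of depth and fragments. Of the 4342 tested, 4087 are protein coding and 252 did not match.

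Gene lists and the rules below were chosen with earlier results of these data known. Named were the 10 steepest mRNAs in each direction, the largest changes of slope, the 6 most abundant within 0.25 log2, and in each list the 2 most abundant and the lowest and highest line. POP2, CCR4, PAB1, HIS3 and PGK1 were named in any case. Alternatives were other scalings, pseudocounts, filters, time axes and leaving out each library.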

Additional observations from a re-analysis of the deposited data

How the results depend on the processing

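No paired analysis was possible because there is 1 library per time point. The count of slope calls with all 5 libraries was 0 under every scaling, pseudocount, filter, variance model and time axis tried. Leaving out 1 library gave between 0 and 863 calls: 863 without the 30 min library, 1 without the 60 min library and 0 without the others. Leaving out the 30 and 45 min libraries together, chosen after seeing the data, gave 1277. For the change of slope, leaving out 1 library gave between 0 and 604 calls. There were 441 without the 45 min and 604 without the 60 min library, and 0 under the other alternatives. In this fit of joined lines, leaving out any 1 library left 1 residual degree of freedom per mRNA. In the same fit without the 45 or the 60 min library limma pooled the variance fully (median total degrees of freedom 4342). The scatter of single mRNAs therefore did not enter those calls. The median line of all mRNAs was −0.16 on FPKM as deposited and 0.041 at the same total FPKM, and between −0.41 and −0.19 with 1 library left out. At the same total FPKM 296 mRNAs were lower by 1 log2 or more and 574 levelled off, against 630 and 992 with the spike-ins. The codon difference was −0.053 without ribosomal protein mRNAs, an alternative chosen after seeing the data, as was the limit of 300 coding bases on the tested genes. No single named mRNA that passed without the 30 min library changed direction under any alternative. The promoter motifs planned were not run.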

Other observations

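A few kinds of rows outside the gene groups had values of their own. Of 8 mitochondrially encoded protein genes, which RNA polymerase II does not transcribe, 3 were tested and had positive lines with a median of 0.25, against −0.34 for all mRNAs. The line of COX3 was −0.16 without the 60 min library, so its sign rests on that library. OLI1, a subunit of ATP synthase, had 227, 250, 252, 256 and 283 from 15 to 60 min, COX2, a subunit of cytochrome c oxidase, had 46.2, 37.2, 50.1, 49.9 and 55.3, and COX3, another subunit of it, had 40.3, 36.7, 39.8, 35.9 and 47.2. None of the 3 was called with or without the 30 min library.

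The 4 genes of the 2-micron plasmid, which is carried in the nucleus and transcribed there, had a median line of −0.50, and R0030W fell without the 30 min library with 32.5, 38.7, 20.3, 26.9 and 16.1. Of the 252 tested genes that did not match the annotation, 58 fell and none rose without the 30 min library (23.0%, next to the background of 19.1%), and 96 fell and 1 rose without the 30 and 45 min libraries, with a median line of −0.57.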
